A study of Homo sapiens with 4 samples.

Results

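Long intergenic non-coding RNA genes with numbered LINC symbols were examined in the RNA of MDA-MB-231 cells that overexpressed Flag-tagged YTHDC1. The members were every listed transcript whose gene symbol was LINC followed only by digits. There were 726 such transcripts of 337 symbols, out of 75165 transcripts of 20266 symbols in the whole table. They made up 0.966% of the listed transcripts and held 0.111% of the summed mean normalized counts. MDA-MB-231 is a triple negative breast cancer line with a mesenchymal character. RNA immunoprecipitation sequencing (RIP-seq) compared the RNA pulled down with an anti-Flag antibody, from 2 IP libraries, with the RNA of the starting nuclear lysate, from 2 input libraries. All 4 libraries came from cells transduced with a lentiviral vector in which the CMV promoter drives 3x Flag-YTHDC1, at a multiplicity of infection of 4, with 4 days of selection in puromycin at 2 μg/ml. Crosslinking by UV and isolation of nuclei came before the IP, so the input also stands for nuclear RNA and not for the whole cell. Cells without the transgene and pulldowns with control IgG were not analysed here.

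The value used here is the authors' mean normalized count of each transcript, a single mean over the 2 IP and the 2 input libraries together. It has no value for a single library, no SD and no separate value for IP and input, so library depths are unknown, and neither the difference between IP and input nor the error between replicates could be measured from it. The values below are therefore descriptions with no test. A count was not divided by transcript length, so a larger count shows that more reads were assigned and not that more RNA molecules were present. The label of the cells was checked on markers. VIM, AXL, EGFR, CD44, CAV1 and ZEB1, genes expected to be present in this line, were all listed, with summed counts from 1823 for ZEB1 to 80785 for VIM. No transcript of the hormone receptor genes ESR1 and PGR was listed. The epithelial adhesion genes CDH1 and EPCAM and the luminal transcription factor GATA3, expected to be low or absent, were listed too. Their summed counts were 10.0, 78.3 and 584, so being listed is by itself weak support for the label. YTHDC1 had 6 listed transcripts with a summed count of 55488, in which reads of the transgene and of the endogenous gene cannot be told apart.

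A LINC symbol is a serial number given to a long non-coding RNA gene that lies between coding genes and has no name from a known function. Such RNAs are transcribed by RNA polymerase II, and many are spliced, kept in the nucleus and low in abundance compared with mRNA. Some act on the gene next to them, others work as scaffolds for proteins, and for most no function is established. YTHDC1 is the nuclear reader of N6-methyladenosine (m6A), a mark that both mRNA and long non-coding RNA carry.

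LINC transcripts had low counts. Their median mean normalized count was 14.8, with quartiles of 7.86 and 36.1, against a median of 44.2 for all transcripts and 52.2 for transcripts of protein-coding genes. The lowest value was 2.72, which was also the lowest of the whole table, and the highest was 2961. A mean normalized count of at least 100 was reached by 9.37% of the LINC transcripts and by 34.6% of all transcripts. In other classes of gene symbol, the median was 17.1 for antisense symbols, which end in AS and a number. It was 20.8 for divergent and microRNA host symbols, and 15.9 for clone-based symbols, the names of genes known by a sequenced clone. A count of at least 100 was reached by 12.6%, 14.7% and 12.3% of the transcripts of these classes. The clone-based class had more genes than the whole table had of type lncRNA. Part of it was therefore of other types, and its values do not stand for long non-coding RNA alone. Whether LINC transcripts differed from these classes was not tested, and transcript lengths, which these counts depend on, were not used.

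**Figure D1:**
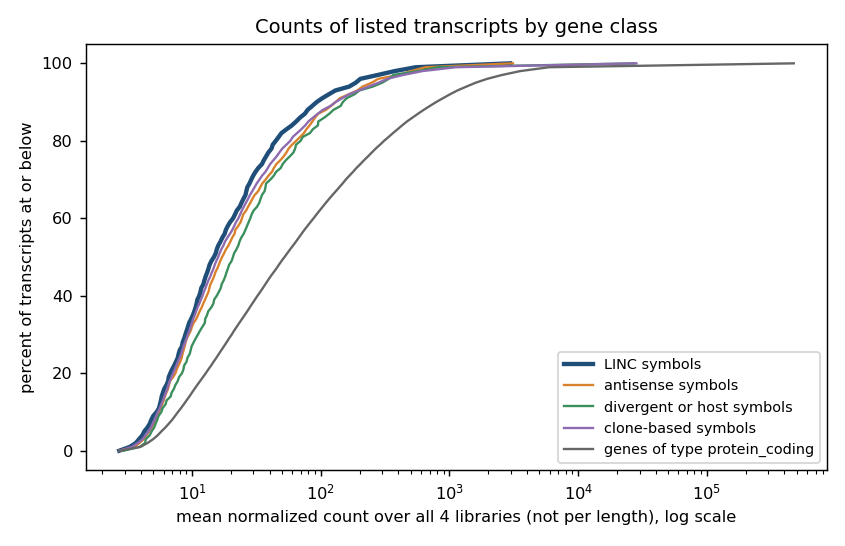
Cumulative percent of listed transcripts (vertical axis) by mean normalized count over all 4 libraries (horizontal axis, log scale), for 4 classes of gene symbol and for protein-coding genes. The LINC curve, drawn thick, has its middle at 14.8 and the protein-coding curve at 52.2.

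Summed over the listed transcripts of each symbol, the 337 genes ranged from 2.93 to 5772, with a median of 23.1 and quartiles of 9.32 and 70.2. The sum reached 1000 in 6 genes, 100 in 66 genes and 10 in 248 genes, and stayed below 10 in 89. The counts were concentrated in few members. The 6 genes above 1000 held 34.2% of all LINC counts, the 10 leading genes held 41.8%, and 15 genes were enough for at least 50%. This share depends on the number of genes in a class. The 10 leading genes held 26.1% of the counts of the 496 antisense symbols, 17.1% of those of the 3730 clone-based symbols and 87.8% of those of the 91 divergent and host symbols, of which 1 gene alone held 64.1%. The 5 lowest members were LINC00310 at 3.63, LINC00615 at 3.56, LINC01058 at 3.41, LINC01771 at 3.15 and LINC02795 at 2.93, each with 1 listed transcript.

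LINC00205 (ENSG00000223768.2) led with a summed count of 5772, which was 15.5% of all LINC counts and 2.74 times that of the next gene. RefSeq places it at chr21:45288052-45297354 (GRCh38.p14), on the plus strand. Of its 3 listed transcripts, LINC00205-201 had 2961 and LINC00205-204 had 2756, and LINC00205-203 had 53.7. The first of these lay at or above 97.7% of all 75165 transcripts. The gene was thus listed with 2 transcripts of nearly equal count, and 1 further transcript with 0.930% of its reads. These values come from a statistical estimate that divided the reads among the transcripts, so the near-equal split cannot be told apart from that division.

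LINC00472 (ENSG00000233237.8), a gene described as a tumour suppressor in breast cancer, was next with a summed count of 2106. Its leading transcript LINC00472-209 had 1637, or 77.7% of the gene. The other 4 transcripts ranged from 35.8 to 234. LINC01128 (ENSG00000228794.10) followed at 1558, divided over 13 transcripts of which the highest, LINC01128-205, had 286. LINC02693 had 1185, LINC01145 had 1036 and LINC00342 had 1035, with leading transcripts of 573, 577 and 752. The last 2 sums differed by less than 1 count, and with no replicate values their order cannot be told apart.

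LINC01578 (ENSG00000272888.7), now named CHASERR, is transcribed upstream of CHD2, a chromatin remodeler gene that it is known to repress in cis. It was seventh, with a summed count of 776 in 4 transcripts, of which LINC01578-207 had 550. RefSeq places it at chr15:92882843-92898747 on the plus strand, and the closest start of CHD2, on the same strand, lay 17028 bases from its own closest start. CHD2 had a summed count of 5511 in 15 listed transcripts. LINC00857, studied for growth of lung cancer cells, had 660 in 3 transcripts. LINC00261, a gene next to FOXA2 that is known for endoderm differentiation, had 398 in 3 transcripts. LINC00963, first described in castration-resistant prostate cancer, had 441 in 10 transcripts.

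The other members among the 25 largest sums were LINC01002 at 720, LINC00667 at 696, LINC00680 at 652, LINC00863 at 638, LINC00511 at 617, LINC01123 at 585, LINC01001 at 547 and LINC01588 at 498. They were followed by LINC00654 at 483, LINC00847 at 481, LINC01547 at 453, LINC00638 at 410, LINC00235 at 398, LINC00639 at 363 and LINC00842 at 355. These 25 genes held 61.5% of the LINC counts with 150 of the 726 transcripts. Of the 25, LINC01123, LINC00638, LINC00235 and LINC00842 had 1 listed transcript each.

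**Figure D2:**
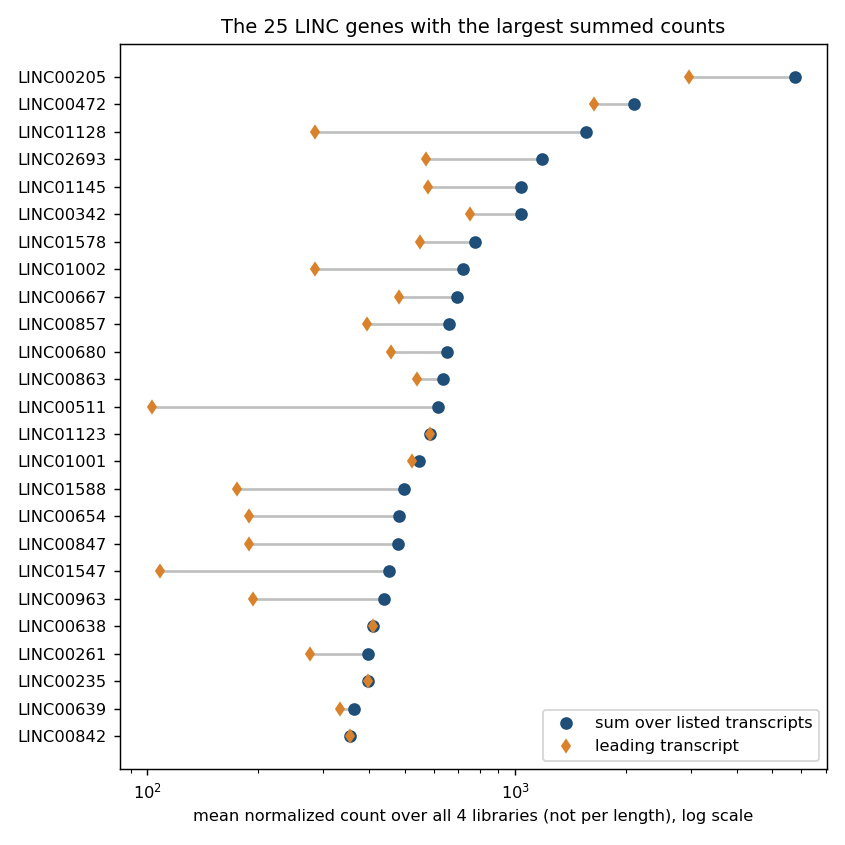
Mean normalized count over all 4 libraries (log scale) of the 25 LINC genes with the largest sums. Circles are the sum over listed transcripts and diamonds the leading transcript, so a long grey line, as for LINC00511 (617 and 103) or LINC01128 (1558 and 286), marks a gene whose reads were spread over many transcripts.

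Reads of several members could have been shared with near-identical copies elsewhere in the genome. In the table, 10 members had a pseudogene type, with 5.96% of the LINC counts, among them LINC01145 at 1036, LINC00680 at 652 and LINC01347 at 105. LINC02210 at 146 was counted among the 10 as well, but its unitary type does not by itself point to a copy. The values of LINC01145 and LINC00680 are uncertain for this reason. LINC01002 and LINC01001 lie near chromosome ends, where similar copies are common, and are uncertain too. The same holds for LINC01128, which RefSeq places at chr1:827591-859446. The other leading members were not examined for copies, so their values are not shown to be free of shared reads. LINC00672, typed as protein-coding and now named LASP1NB, had 1 transcript at 16.2. LINC00552, which awaits experimental support in the annotation, had 26.1, and the remaining 325 symbols were typed as lncRNA. Without the pseudogene types, 62 members in place of 66 reached a sum of 100.

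LINC genes were mostly listed with few transcripts. Of the 337 genes, 198 (58.8%) had 1 listed transcript, 107 had 2 to 4 and 32 had at least 5. The share of genes with 1 listed transcript was 52.2% for antisense symbols, 87.6% for clone-based symbols and 18.3% for protein-coding genes. The median summed count was 11.3 in LINC genes with 1 transcript, 42.2 in those with 2 to 4 and 263 in those with at least 5. The leading transcript alone followed the same order, with medians of 11.3, 26.8 and 106. A transcript was listed only when it had enough reads, so a gene with more reads could pass with more of its transcripts.

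In the 139 genes with at least 2 listed transcripts, the leading transcript held a median of 57.9% of the gene's counts, with quartiles of 45.5% and 70.2%. The corresponding median was 59.7% over all genes of the table with at least 2 transcripts. The leading transcript held less than 50% in 40 LINC genes and at least 90% in 2, which were LINC01001 (95.7%) and LINC00639 (91.6%). The members with most listed transcripts were LINC00511 with 23, LINC01002 with 16, LINC01128 and LINC00662 with 13 each, and LINC01588, LINC00963 and LINC00630 with 10 each. In LINC00511 the highest transcript, LINC00511-255, held 16.7% of the counts, and 5 transcripts were needed to reach 50%. In LINC01128 the 3 highest transcripts had 286, 277 and 262. In LINC00662 the sum of 172 was led by a transcript with 25.1%, and in LINC01588 the leading share was 35.2%. The reads were divided among overlapping transcripts by a statistical estimate, so a difference between such close values cannot be told apart from that division.

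**Figure D3:**
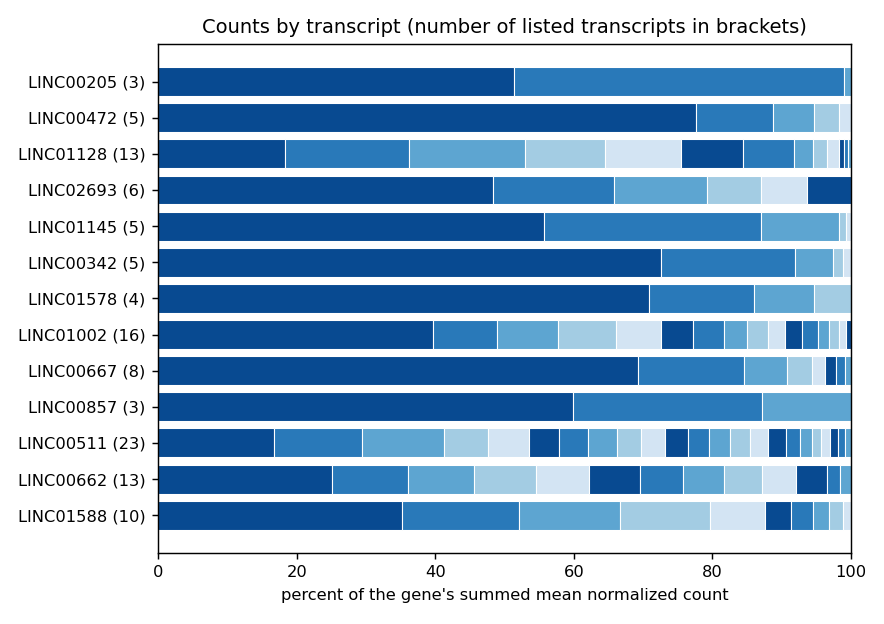
Percent of each gene's summed mean normalized count (horizontal axis) held by each listed transcript, for the 10 LINC genes with the largest sums and the remaining members with most transcripts. Segments run from the highest to the lowest transcript, and LINC00205 is filled almost wholly by 2 segments whereas LINC00511 has 23, none above 16.7%.

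By annotated transcript type, 678 of the 726 LINC transcripts (93.4%) were lncRNA, 24 were processed transcripts and 19 were retained-intron transcripts. Retained-intron transcripts keep an intron that other transcripts of the gene remove. They held 2.69% of the LINC counts, most of it in LINC01145-207 with 577. LINC01002 had 7 of the 19, with values from 6.77 to 33.5. In 5 genes with at least 2 transcripts a retained-intron transcript led, LINC00641-201 among them with 74.2, or 86.7% of its gene.

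A list of 18 LINC genes studied in breast cancer or known for a regulatory role was looked up, and 13 were listed. Their median sum was 125, against 23.1 for all 337 members. Of the 13, 7 reached 100 and 3 were below 10, against 19.6% and 26.4% of all members. The list was chosen with earlier results of these data known, so its higher median is not an independent result. LINC00472, LINC01578, LINC00511 and LINC00963 were among the 25 largest. LINC00511, known to promote breast cancer growth, was described in the table as LINC00673 with the synonym SLNCR1, and LINC00673 was not listed under its own symbol. Whether its 23 transcripts include those of LINC00673 was not examined. LINC00665 had a sum of 195, LINC01116 had 143 and LINC00467, a gene repressed by MYCN in neuroblastoma, had 125. LINC01089, also known as LIMT and lowered by EGF in mammary cells, had 64.0, but it overlaps the coding gene SETD1B in RefSeq.

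The remaining listed members of this list had sums below the median of 23.1 over all LINC genes. LINC01638, described in triple negative breast cancer, had 18.4 and LINC01139, also known as LINK-A and linked to HIF1α signaling, had 11.8, each in 2 transcripts. LINC00707 had 7.74, LINC01503, a gene of squamous cell carcinoma, had 4.77 and LINC00460 had 4.04, each in 1 transcript. LINC00052, LINC00473, a target of CREB, LINC02273 and LINC00941 had no listed transcript. A gene without a listed transcript is not shown to be absent, since a transcript needed 5 reads or more in no fewer than 50% of the samples to be kept.

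The serial number of the symbol, which roughly follows the order of naming, went along with how often genes were listed. RefSeq has 2304 numbered LINC symbols, of which 299 (13.0%) were listed under the same symbol. The share was 23.4% of 427 symbols up to LINC00999, 13.9% of 814 from LINC01000 to LINC01999 and 8.09% of 1063 from LINC02000. The median sums of the listed genes were 31.2, 20.9 and 16.9 in the same order. The earliest series held 55.2% of the LINC counts and the latest 12.8%. Symbols that have been replaced since GENCODE v33 are missing from these shares. A symbol given after that release could not be listed, and the highest listed number was LINC02863. The shares of the latest series and of all symbols may therefore be too low, and how far naming accounts for the order was not tested.

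The name intergenic did not hold for every member. RefSeq positions were found for 332 of the 337 symbols, and 29 of these (8.73%) overlapped a named protein-coding gene. LINC00847 at 481 overlapped ZFP62, LINC01547 at 453 overlapped SLX9, and LINC01006 at 331 overlapped RNF32. Some matches by synonym are doubtful. LINC02804 took the position of the coding gene GPR89B and was not counted as overlapping, and LINC01293 took that of LINC01291. The strand setting of the read counting is not given in the sources used here, so reads of an overlapping pair cannot be told apart. The median sum was 25.4 in the 29 overlapping members and 23.3 in the 303 others. In a newer table of gene names, 25 members had a symbol other than a LINC number, 13 of them ending in DT for divergent transcript and 2 in AS for antisense. In addition, 35 members had an older synonym as an open reading frame of a chromosome.

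Divergent pairs were looked for among the 242 members with a promoter window in RefSeq. In 20 members (8.26%) the closest start of a named coding gene lay within 1000 bases, upstream and on the opposite strand, so that the 2 genes were head to head. The gap between the starts ranged from 35 to 849 bases. Because the window table does not hold every gene, this is a lower count of such pairs. With only the most 5′ window of each gene, in place of any start, the count was 18, all 18 of them among the 20. The 20 members had a median sum of 52.4 (quartiles 14.3 and 228), against 25.4 (quartiles 10.9 and 72.5) for the 222 others, so that the quartiles overlapped. Without LINC00205 the median of the head-to-head members was 47.7. They held 21.4% of the LINC counts, and 5.83% without LINC00205.

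LINC00205 itself starts 157 bases from POFUT2, an enzyme that adds fucose to secreted proteins. It was 1 of 2 members whose sum exceeded that of the coding partner, with 5772 against 2064 for the 10 listed transcripts of POFUT2. The other was LINC01006 with 331 against 54.4 for RNF32, 239 bases away, which it also overlaps. The partner had the larger sum in 17 of the 19 pairs in which it was listed. LINC01547 had 453 against 1747 for SLX9, LINC00235 had 398 against 5082 for CAPN15, and LINC01184 had 240 against 927 for SLC12A2, a chloride cotransporter. At the other end, LINC01771 had 3.15 against 1986 for LRP8, a lipoprotein receptor, and LINC00337 had 42.2 against 5513 for ICMT. The sums within a pair thus ranged widely in both members, and a large sum of the partner went with small and large sums of the LINC gene.

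**Figure D4:**
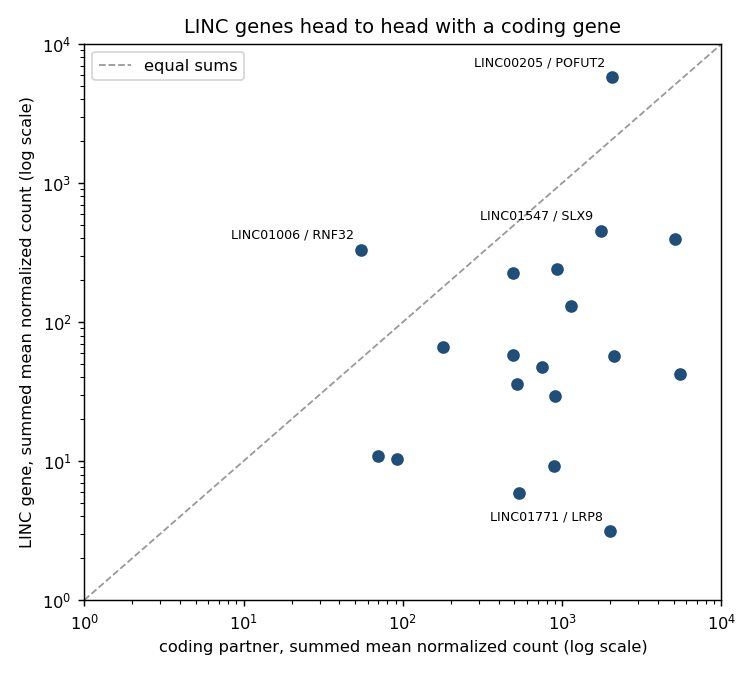
Summed mean normalized count of the LINC gene (vertical axis) and of its coding partner (horizontal axis), both on a log scale, for the 19 head-to-head pairs with a listed partner. Only LINC00205 and LINC01006 lie above the dashed line of equal sums.

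Promoter windows, from 250 bases before the start to 50 after it, are shown for 4 members among the 25 largest sums, to set CG-rich beside CG-poor starts. They come from RefSeq (GRCh38.p14), read 5′ to 3′ on the strand of the gene, with each CG dinucleotide in capitals. The windows of LINC00205 and LINC01578 held 34 and 36 CG, and those of LINC01588 and LINC01002 held 1 each.
LINC00205, chr21:45287802-45288101, plus strand: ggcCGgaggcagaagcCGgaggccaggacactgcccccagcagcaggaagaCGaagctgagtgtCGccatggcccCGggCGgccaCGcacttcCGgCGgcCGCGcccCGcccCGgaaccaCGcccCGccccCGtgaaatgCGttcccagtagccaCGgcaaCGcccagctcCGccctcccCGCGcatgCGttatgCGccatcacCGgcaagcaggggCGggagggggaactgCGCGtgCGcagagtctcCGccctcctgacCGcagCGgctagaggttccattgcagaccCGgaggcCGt
LINC01578, chr15:92882593-92882892, plus strand: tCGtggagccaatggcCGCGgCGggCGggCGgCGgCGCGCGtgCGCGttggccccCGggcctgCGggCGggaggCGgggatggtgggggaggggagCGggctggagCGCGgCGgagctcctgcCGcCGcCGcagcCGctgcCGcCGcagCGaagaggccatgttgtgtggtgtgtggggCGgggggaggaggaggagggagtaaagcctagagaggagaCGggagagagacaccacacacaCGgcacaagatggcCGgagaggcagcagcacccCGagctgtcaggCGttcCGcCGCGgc
LINC01588, chr14:50007471-50007770, minus strand: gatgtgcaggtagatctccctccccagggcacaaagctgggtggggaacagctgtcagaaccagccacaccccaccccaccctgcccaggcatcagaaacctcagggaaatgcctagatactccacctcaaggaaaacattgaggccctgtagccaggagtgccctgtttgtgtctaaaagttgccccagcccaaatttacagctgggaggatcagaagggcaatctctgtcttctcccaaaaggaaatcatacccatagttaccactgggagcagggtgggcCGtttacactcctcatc
LINC01002, chr19:202160-202459, minus strand: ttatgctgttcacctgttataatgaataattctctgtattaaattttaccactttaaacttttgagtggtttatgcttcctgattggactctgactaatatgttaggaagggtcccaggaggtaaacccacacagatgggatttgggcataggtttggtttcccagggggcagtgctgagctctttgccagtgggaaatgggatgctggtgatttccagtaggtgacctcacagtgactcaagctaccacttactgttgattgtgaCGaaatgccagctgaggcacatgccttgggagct

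CG dinucleotides, which read the same on both strands, are dense in the CpG islands where many widely used promoters start. The 242 listed members had a median of 10 CG in the window (quartiles 4 and 25.8), and 39.7% of them had at least 16. Of 1365 LINC genes that were not listed, 11.8% had at least 16, and their median was 3. Some of these may have been present under another name, if they were given a LINC number after GENCODE v33. All 27305 promoter windows had a median of 13, with 47.2% at 16 or more, and the windows of 10958 listed coding genes a median of 26, with 78.1%. Listed LINC genes thus lay between LINC genes that were not listed and listed coding genes. The 20 head-to-head members had a median of 34.5, and 95.0% of them had at least 16. Of the 222 others, 34.7% had at least 16. In most head-to-head pairs the start of the coding partner lay inside the window of the LINC gene. The window then also covered promoter sequence of the partner, so a high CG count follows in part from how these members were chosen. Whether their own promoters were richer in CG was not tested.

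Among listed members, those with CG-rich windows more often had large sums. The median sum was 17.6 in 81 members with 5 or fewer CG, 32.1 in 65 members in between and 45.0 in 96 members with 16 or more. A sum of 100 was reached by 11.1%, 20.0% and 31.3% of them. The members with 16 or more CG included 95.0% of the 20 head-to-head members, of which 7 reached 100. Windows of most of these also covered promoter sequence of the coding partner. Whether the order holds without the head-to-head members was not tested. The ranges overlapped widely, from 2.93 to 720 with few CG and from 3.15 to 5772 with many. LINC01002 at 720 and LINC01588 at 498 were members with 1 CG and a large sum, and LINC01771 at 3.15 lay at the other end in a CG-rich window. The match of letters says nothing of which factors bound these promoters, and the RNA was not measured at its start site.

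**Figure D5:**
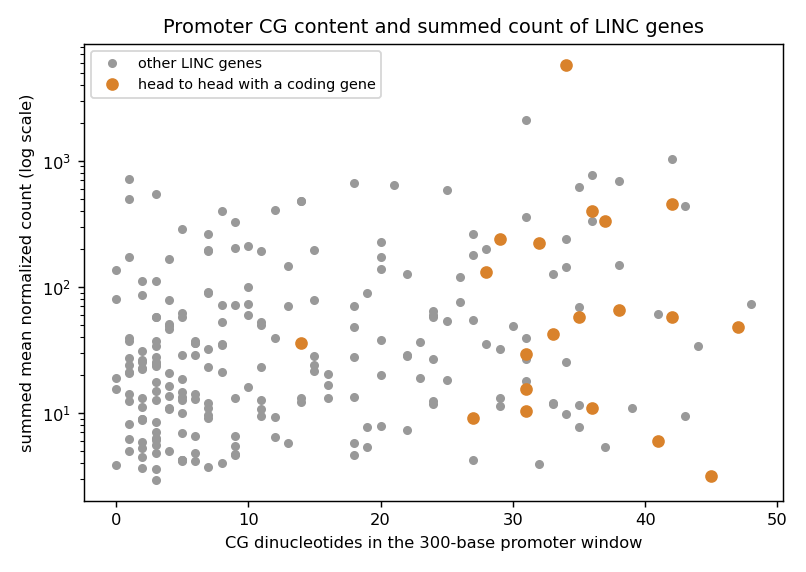
Number of CG dinucleotides in the promoter window (horizontal axis) and summed mean normalized count (vertical axis, log scale) of 242 LINC genes. Head-to-head members, drawn larger, lie at 14 or more CG, with LINC00205 at the top, and members with few CG spread from 2.93 to 720.

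Listed members were spread over 23 chromosomes by RefSeq positions. Chromosome 1 had most, with 51 members and a summed count of 4592, and it also has most LINC symbols in RefSeq, 237. Chromosome 21 had 14 members and the largest summed count, 6533, of which LINC00205 made up 88.3%. LINC00472 made up 70.3% of the LINC counts of chromosome 6 and LINC01578 87.6% of those of chromosome 15. On chromosome 3, in contrast, the leading gene LINC02009 held 22.8% of the counts of 24 members.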

How the data were processed

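RIP-seq was analysed for 2 Flag-YTHDC1 IP and 2 input libraries of MDA-MB-231 cells, grouped by their titles. Per the submitters' processing notes and the study's methods, the authors aligned reads by STAR 2.7.2b to GENCODE v33 transcripts (GRCh38), estimated reads per transcript by RSEM 1.2.31, dropped transcripts without 5 or more reads in at least 50% of samples, corrected batch effects with RUVSeq and ran DESeq2. The number of RUVSeq factors, the strand setting and duplicate handling are not given in the sources used here. The deposited signal value of each transcript is the authors' mean normalized count over all libraries, not per length. The 4 other numeric columns hold the authors' own comparison of IP with input (a fold change, its standard error and p-values) and were not used. With no value per library, the planned edgeR test could not be run, and depth and replicate error are unknown.

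Members, classes and lists were chosen with earlier results of these data known. Named were the 25 largest sums, the 5 members with most transcripts, the 5 lowest sums and the list of 18 genes. Any other named gene, and the summaries of positions, CG counts, symbol series and pseudogene types, were chosen after values were seen. Symbols were matched to RefSeq genes by symbol or by a synonym of 1 gene (332 of 337), and the most 5′ window was used for CG counts. Coding genes left out predicted LOC symbols. Identifiers were matched to newer gene names for 336 of 337 symbols. Python 3.11.15, numpy 2.4.6, pandas 2.3.3 and matplotlib 3.10.9 were used, and the summaries were tested on simulated data. Minimum counts, other gene values and a wider symbol rule were tried as alternatives.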

Additional observations from a re-analysis of the deposited data

How the results depend on the processing

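A minimum mean normalized count of 10 left 478 of the 726 LINC transcripts and one of 100 left 68. Of the 337 genes, 49 had a transcript of at least 100. The median of 14.8 over transcripts became 26.4 with a minimum of 10, 23.1 with gene sums and 17.9 with the highest transcript of each gene. The share held by the 10 leading genes was 38.7% with the highest transcript of each gene, and 33.2% without LINC00205. This setting, the 2 tried on the count of 66 genes and the one on head-to-head pairs were added with the data in view. The minimum counts and the highest-transcript setting leave out transcripts, the gene sums pool all 726 transcripts into 337 values, and the setting without LINC00205 leaves out 1 gene. No paired analysis was possible because the table gives no value per library. For the same reason leaving out replicates, DESeq2 size factors and the planned count test without a filter on reads per library were not run. Depth limits could not be stated, since library totals are unknown.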

Other observations

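LINC-PINT, a p53-induced RNA whose symbol has no number and which the symbol rule therefore left out, had 9 listed transcripts with a summed count of 735, led by a transcript with 430. LINC00266-1 had 1 transcript with 8.19.

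LINC00106 was listed with 2 gene identifiers, 1 for each copy of a region shared by the X and Y chromosomes. Both copies had the same values, 21.5 and 11.7 in 2 transcripts, with a sum of 33.2. Reads of the 2 copies cannot be told apart, so RNA from a Y copy is not shown. Counted over both copies, LINC00106 had 4 transcripts and a leading share of 32.3%, and was 1 of the 40 genes below 50%. LINC01238 also had 2 identifiers, with counts of 8.71 and 7.40.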
